A study of Mus musculus with 12 samples.

Results

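The genes described here encode 3 consecutive enzymes of the tricarboxylic acid (TCA) cycle: succinyl-CoA ligase (Suclg1, Suclg2 and Sucla2), succinate dehydrogenase (Sdha, Sdhb, Sdhc and Sdhd) and fumarase (Fh1). They were chosen by symbol, as genes of these enzymes, and each of the 8 symbols matched a single row of the 13780 genes listed. All 8 passed the filter on low counts, as did 13767 genes in all. RNA was sequenced from mouse CD8+ T cells in 12 libraries, 4 in each of 3 groups. The cells came from spleens of wild-type C57BL/6J mice aged 8 to 12 weeks and were purified with magnetic beads by positive selection. Naïve cells were frozen directly after purification, with no treatment. Media cells were activated for 72 h with beads carrying anti-CD3 and anti-CD28 antibodies and 10 U/ml IL-2 in plain media. Lactate cells were activated in the same way for 72 h with 40 mM sodium lactate added. The transcriptome had no sodium chloride control, so effects of lactate and of the added sodium or osmolality cannot be told apart. The question addressed was how lactate present during activation changes the transcripts of these enzymes, and how far activation itself does so.

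Succinyl-CoA ligase turns succinyl-CoA into succinate and keeps the released energy as a nucleoside triphosphate. Its α subunit, Suclg1, pairs either with the ADP-specific β subunit Sucla2 or with the GDP-specific β subunit Suclg2. Succinate dehydrogenase, which is also complex II of the respiratory chain, oxidises succinate to fumarate and passes the electrons to ubiquinone. It contains each of its subunits once: Sdha holds the flavin and the substrate site, Sdhb holds the iron-sulfur clusters, and Sdhc and Sdhd anchor the enzyme in the inner mitochondrial membrane. Fumarase hydrates fumarate to malate. Activated T cells are known to raise mitochondrial metabolism as they grow and divide, and succinate and fumarate are known inhibitors of dioxygenases that act on histones, DNA and HIF-1α.

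The genes lie apart in the genome, on 6 chromosomes (GRCm38, GENCODE release M21). Suclg1 (ENSMUSG00000052738) spans chromosome 6, 73248382 to 73276911, on the + strand, and Suclg2 (ENSMUSG00000061838) lies on the same chromosome at 95473009 to 95718800, on the - strand. Sucla2 (ENSMUSG00000022110) spans chromosome 14, 73525319 to 73596142, on the + strand. Sdha (ENSMUSG00000021577) spans chromosome 13, 74322254 to 74350280, on the - strand, and Sdhb (ENSMUSG00000009863) spans chromosome 4, 140961203 to 140979193, on the + strand. Sdhc (ENSMUSG00000058076) and Fh1 (ENSMUSG00000026526) are both on chromosome 1, on the - strand, at 171127165 to 171150603 and at 175600374 to 175625635. Sdhd (ENSMUSG00000000171) spans chromosome 9, 50596357 to 50603812, on the - strand. Reads were counted over exons, and no exon of the 8 genes overlaps an exon of another annotated gene (0.0% of their exon length). Sdha starts 29 bases from Ccdc127 and Sdhd 98 bases from Timm8b, both of which are transcribed in the opposite direction.

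Promoter sequences from RefSeq (GRCm38.p6) were at hand for 7 of the 8 genes, each a window of 300 bases, 250 before the RefSeq start of the gene and 50 after it. The RefSeq starts of Suclg1, Sucla2, Sdha and Sdhb lie inside the spans given above, downstream of the first annotated start. For Sucla2 the whole window lies inside the span, so it describes that inner start only. The windows were searched on both strands for TGCGCA, the core of the site of NRF1, a regulator of nuclear genes for mitochondrial proteins, for CCGGAAG, a site of GABP and other ETS factors, and for CACGTG, the E-box. The NRF1 core occurred in 2 of the 7 windows, Sdha and Sdhd, against 7.76% of all 32851 promoter windows. It began 56 and 11 bases before the start of Sdha and 189 and 80 bases before that of Sdhd. The ETS letters occurred in Sdhd, 46 bases before the start, and in Sdhb, at base 7 after it, against 8.86% of all windows. The E-box occurred in 0 of the 7 windows, against 7.15% of all. No motif overlapped another. The stretches are those of the 5 genes called higher with lactate and of Sdha and Sdhd, which were not called. The Sdha stretch holds the NRF1 core 56 bases before the start, but not that at 11 bases. The Sdhd stretch holds the ETS letters and neither of its NRF1 cores. The ETS letters of Sdhb lie outside its stretch. Any link between the motifs and the calls was not tested. The stretches of Suclg1, Sucla2, Sdha and Sdhb end 124, 155, 41 and 69 bases before the RefSeq start. Each stretch is the part before the RefSeq start, of at most 100 bases, that no annotated exon covers, read 5′ to 3′ on the strand of the gene, with the motifs in capitals.
Suclg1, chr6:73248282-73248381, + strand: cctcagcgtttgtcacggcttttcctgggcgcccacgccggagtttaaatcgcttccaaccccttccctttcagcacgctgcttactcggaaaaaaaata
Suclg2, chr6:95718847-95718946, - strand: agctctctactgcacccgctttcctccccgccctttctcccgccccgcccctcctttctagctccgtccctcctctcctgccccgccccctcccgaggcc
Sucla2, chr14:73552536-73552631, + strand: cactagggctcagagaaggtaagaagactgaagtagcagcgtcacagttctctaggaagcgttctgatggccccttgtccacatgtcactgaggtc
Sdhb, chr4:140961103-140961202, + strand: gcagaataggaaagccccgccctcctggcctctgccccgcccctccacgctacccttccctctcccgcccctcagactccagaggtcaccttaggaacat
Fh1, chr1:175625636-175625735, - strand: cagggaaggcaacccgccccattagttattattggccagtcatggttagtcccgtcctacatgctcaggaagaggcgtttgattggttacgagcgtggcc
Sdha, chr13:74350281-74350308, - strand: ggaggggcgtgtTGCGCAggcgcagaat
Sdhd, chr9:50603850-50603909, - strand: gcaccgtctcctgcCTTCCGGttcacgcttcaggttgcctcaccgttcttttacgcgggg

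The libraries held 14726904 to 21478137 counts. Values per gene are given as CPM, counts scaled to a common library size by the TMM method. Only the cell type markers in this paragraph are in CPM scaled by total counts alone. Fold changes with their standard errors (SE) and adjusted p-values come from edgeR's quasi-likelihood test across all genes. A gene was called where its adjusted p did not exceed 0.01. The labels of the activated libraries carry donor tags, some of which repeat between the low and the high run of library numbers. Read as separate donors in each run, they gave 5 donors, of which 3 were sampled in both conditions. The labels alone do not settle this reading, and they give no donor for the naïve libraries. The markers of CD8+ T cells (Cd3e, Cd3d, Cd8a and Cd8b1) summed to 1376 to 3105 CPM in naïve, 2293 to 2794 in media and 1755 to 2266 in lactate libraries. In this sum the lactate libraries were all below media, but the 4 genes differed. Cd3e was at 311 to 408 CPM with lactate against 603 to 796 CPM in media, and Cd3d at 213 to 317 against 383 to 504.5 CPM. Cd8a overlapped between the groups (756 to 948 against 849 to 1061 CPM). Cd8b1 overlapped too and ranged higher with lactate (437 to 594 against 381 to 476 CPM). The part of this in the results was not tested. The 4 naïve libraries also held B cell markers (4 of 4 detected; 391 to 966 CPM summed), myeloid markers (5 of 5; 466 to 1425 CPM), red cell markers (2 of 2; 42.7 to 1758 CPM) and NK cell markers (2 of 2; 3.12 to 8.04 CPM). In the 8 activated libraries the same lists summed to at most 14.8, 0.921, 0.809 and 0.708 CPM. The CD4+ T cell list (Cd4, Foxp3 and Zbtb7b) summed to 26 to 56 CPM in naïve, 44.3 to 57.7 in media and 72.9 to 91.1 in lactate libraries. Nearly all of it in activated cells was Zbtb7b (43.9 to 57.2 CPM in media, 71.3 to 90.1 CPM with lactate), while Cd4 was below 1 CPM in every activated library. In bulk RNA, fewer cells of a type and less RNA per cell cannot be told apart.

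With lactate, 5 of the 8 genes were higher than in media, all 3 genes of the ligase, Sdhb and Fh1, and 0 were lower. Over all tested genes 13.9% were called higher and 11.1% lower. The increases were moderate, from 1.32-fold (Sucla2) to 1.77-fold (Suclg1), and the median log2 fold change of the 8 genes was 0.47, beside -0.0016 over all genes tested. All 8 fitted changes were positive, so no gene was lower at an unadjusted p under 0.05 either. DESeq2 called the same number of genes, 5, and over all 13767 tested genes it called 2244 higher and 2307 lower. In CPM, the lowest lactate library lay above the highest media library in 7 of the 8 genes, against 23.2% of all genes. For these 7 the exact two-sided permutation p was 0.0286, the smallest that the 70 arrangements of 4 against 4 libraries allow.

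**Figure D1:**
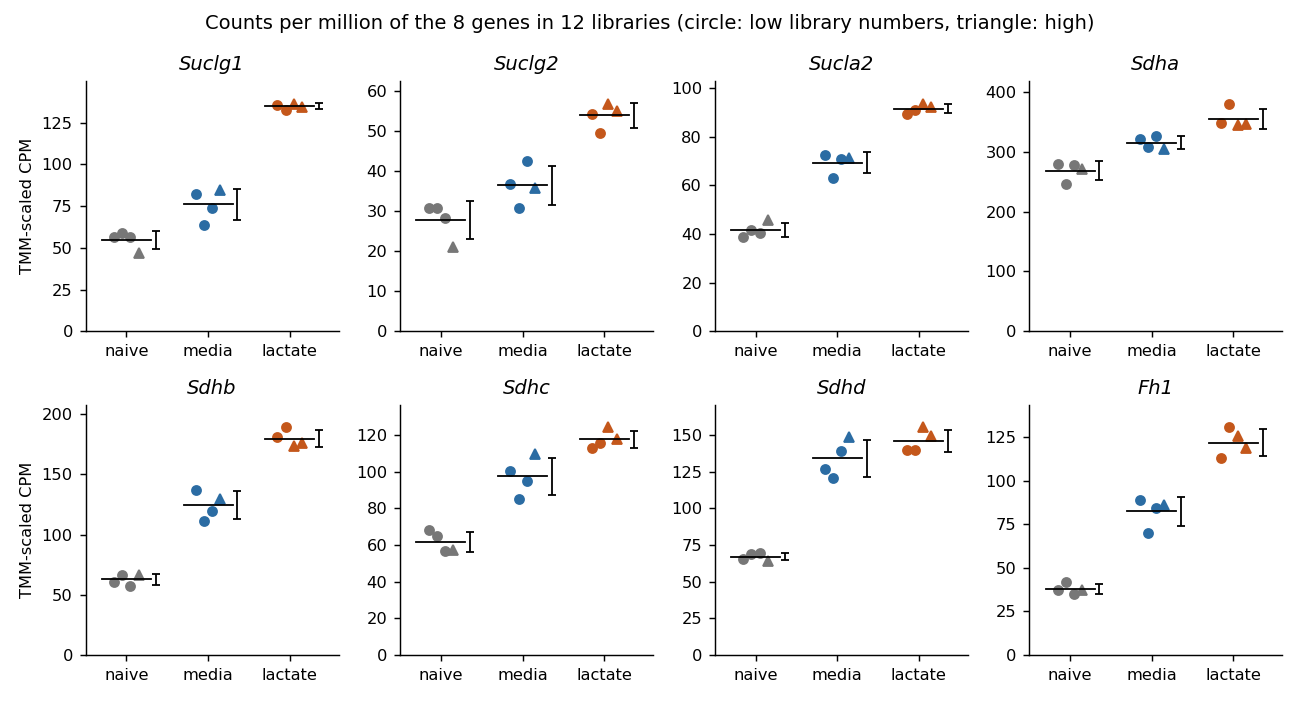
TMM-scaled CPM of each of the 8 genes in the 4 naïve, 4 media and 4 lactate libraries. Points are libraries (circles from the low and triangles from the high run of library numbers), horizontal lines are means and error bars are SD; Suclg1 lies at 132 to 136 CPM in the lactate libraries and at 64.0 to 84.4 CPM in media, while the groups overlap for Sdhd.

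The number of calls depended on how the donors entered the fit. With a term for each donor in the fit of all 12 libraries, 1 gene (Suclg1) was called, and 625 genes in all were higher in place of 1917. With the donor term in a fit of the 8 activated libraries alone, an alternative chosen after seeing the data, 4 were called (Suclg1, Suclg2, Sdhb and Fh1), and 2030 genes in all were higher. The direction was the same for all 8 genes in both. Within the low run of library numbers the lactate minus media differences in mean log2 CPM ran from 0.12 (Sdhd) to 0.88 (Suclg1), and within the high run, of 1 media and 2 lactate libraries, from 0.03 to 0.68 for the same genes.

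Suclg1, the α subunit shared by both forms of the ligase, changed most among the 8 genes. It measured 82.0, 64.0, 73.9 and 84.4 CPM in media and 135.7, 132, 136 and 135 CPM with lactate. The lactate libraries lay close together and far above all media libraries. The means were 76.0 ± 9.24 and 135 ± 1.77 CPM (SD, n = 4 each). The log2 fold change was 0.83 (SE 0.10, adjusted p = 0.000127), and 9.6% of tested genes had a larger one. In the fits with a donor term its change was 0.76 with the activated libraries alone, with an adjusted p of 0.000477.

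The β subunits both rose. Sucla2, which makes ATP, measured 72.5, 63.1, 70.7 and 71.1 CPM in media and 89.3, 90.9, 93.6 and 92.3 CPM with lactate. Its groups were well apart, and its log2 fold change was 0.40 (SE 0.08, adjusted p = 0.0018). It missed the threshold in both fits with the donor term, with an adjusted p of 0.0119 in the 8 activated libraries and 0.0397 in all 12. Suclg2, which makes GTP, measured 36.7, 30.7, 42.5 and 35.6 CPM in media and 54.3, 49.5, 56.7 and 54.9 CPM with lactate. It was the lowest of the 8 genes in counts, and its log2 fold change of 0.57 had the largest standard error (0.13, adjusted p = 0.00556). Suclg2 missed the threshold with the donor term in all 12 libraries (0.0903), and when media replicate 1, 2 or 4 or lactate replicate 1, 3 or 4 was left out (adjusted p from 0.0143 to 0.0206), with log2 fold changes of 0.49 to 0.57.

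Of the 4 subunits of succinate dehydrogenase, Sdhb was the only one called higher with lactate. Sdhb, the iron-sulfur subunit, measured 137, 111, 119.7 and 129.6 CPM in media and 181, 189, 173 and 176 CPM with lactate. Every lactate library was above every media library, with means of 124 ± 11.5 and 179.9 ± 6.92 CPM (SD, n = 4 each). The log2 fold change was 0.53 (SE 0.09, adjusted p = 0.000603), and with the donor term the adjusted p was 0.0032 in the 8 activated libraries and 0.0152 in all 12, past the threshold in the first only.

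The other three subunits were not called, and all were fitted slightly higher. Sdha, the catalytic flavoprotein, measured 322, 309, 327 and 305 CPM in media and 348, 381, 345 and 347 CPM with lactate. These values did not overlap, but the shift was small, with a log2 fold change of 0.17 (SE 0.08, adjusted p = 0.089). Sdhc, a membrane anchor, measured 101, 85.2, 95.1 and 109 CPM in media and 113, 116, 124 and 118 CPM with lactate. Its groups were separate by a narrow gap, and its log2 fold change was 0.27 (SE 0.10, adjusted p = 0.039). Sdhd, the other anchor, measured 127, 121, 139.6 and 149 CPM in media and 139.8, 139.8, 155 and 149 CPM with lactate. Here the groups overlapped (exact permutation p = 0.114), and the log2 fold change was 0.12 (SE 0.08, adjusted p = 0.267). It was 0.08 without media replicate 2 or when scaled by total counts alone, and 0.05 with the donor term in all 12 libraries (0.06 in the 8 activated ones).

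Fh1, the single fumarase gene, measured 88.8, 70.1, 84.7 and 86.2 CPM in media and 113, 130.7, 126 and 119 CPM with lactate. The lowest lactate library was well above the highest media library. The log2 fold change was 0.57 (SE 0.10, adjusted p = 0.000702). Its adjusted p with the donor term was 0.00396 in the 8 activated libraries and 0.019 in all 12, past the threshold in the first only.

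**Figure D2:**
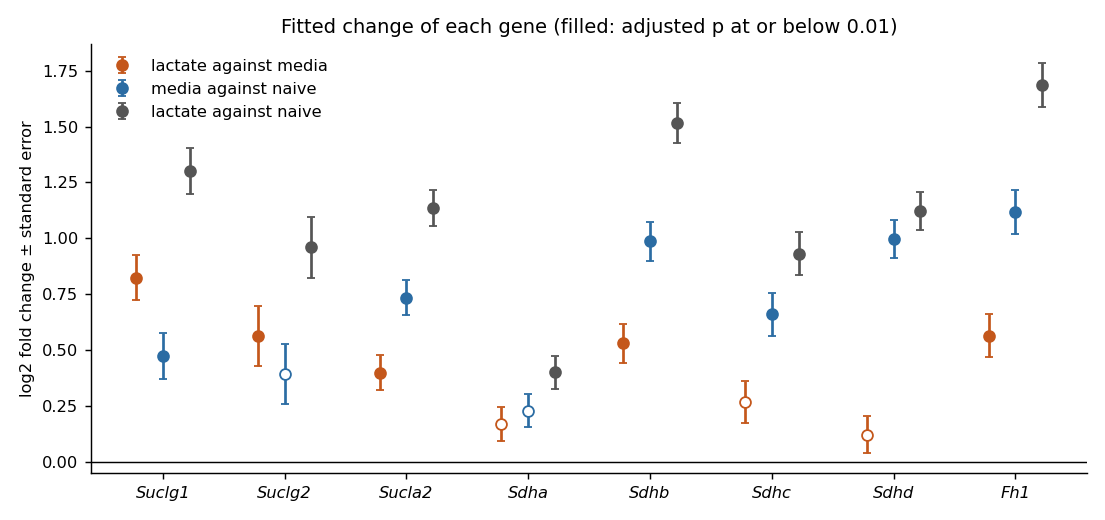
Log2 fold change ± SE of each gene in the 3 comparisons, from the edgeR fit to 12 libraries; filled points have an adjusted p of at most 0.01. All points lie above 0, 5 are filled for lactate against media, 6 for media against naïve and 8 for lactate against naïve.

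Activation in media raised 6 of the 8 genes over naïve cells, and 0 were lower. Of all tested genes 28.5% were called higher and 29.0% lower, and the groups were separate with media higher for 7 of the 8 genes, against 30.7% of all genes. The median log2 fold change of the 8 genes was 0.70, beside -0.03 over all genes. DESeq2 also called 6, where it called 3902 of all 13767 tested genes higher and 4553 lower, and no fitted change was negative. The naïve libraries carried the B cell, myeloid and red cell markers given above, and the part of those cells in these differences was not tested.

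The largest change was that of Fh1, with 37.4, 42.2, 35.2 and 37.1 CPM in the naïve libraries and 70.1 to 88.8 CPM in media. The groups were far apart, and the log2 fold change was 1.12 (SE 0.10, adjusted p = 6.79e-07). Sdhd rose by 1.00 (SE 0.08, adjusted p = 5.47e-07), from 65.5, 69.2, 69.4 and 64.3 CPM in naïve cells, and the naïve libraries lay close together. Sdhb rose by 0.99 (SE 0.09, adjusted p = 8.94e-07), from 60.4, 66.6, 57.6 and 66.7 CPM. Both genes were about 2-fold higher after activation (1.999 and 1.981).

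Sucla2 rose by 0.74 (log2; SE 0.08), from naïve libraries of 38.9 to 45.6 CPM, Sdhc by 0.66 (SE 0.10), from 56.8 to 68.3 CPM, and Suclg1 by 0.48 (SE 0.10), from 46.7 to 59.0 CPM. These 3 had adjusted p-values of 4.36e-06, 5.29e-05 and 0.00115, and Suclg1 missed the threshold without media replicate 4 (0.36, adjusted p = 0.0124). Suclg2 was not called in this comparison. Its naïve libraries measured 30.8, 30.8, 28.2 and 20.9 CPM, naïve replicate 4 was the lowest, and the naïve and media values overlapped (log2 fold change 0.39, SE 0.14, adjusted p = 0.0204, exact permutation p = 0.0857). Sdha, at 280.0, 246, 278 and 271 CPM in naïve cells, was below all media libraries but missed the threshold, with a log2 fold change of 0.23 (SE 0.08, adjusted p = 0.0154), and of 0.11 without naïve replicate 2 (adjusted p = 0.273). Within the low run the media minus naïve differences in mean log2 CPM ran from 0.25 (Sdha) to 1.08 (Fh1) and within the high run, of 1 library a group, from 0.17 to 1.21 for the same genes.

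Between lactate and naïve cells all 8 genes were higher, where 33.0% of all tested genes were called higher and 32.0% lower, and all 8 had groups that did not overlap, against 35.0% of genes. The change ran from 0.40 (Sdha, SE 0.08, adjusted p = 0.000341) to 1.68 (Fh1, SE 0.10, adjusted p = 2.01e-08) on the log2 scale, with a median of 1.13 beside 0.01 over all genes. Sdha missed the threshold without naïve replicate 2 (0.27, adjusted p = 0.0117), the library with the most red cell and B cell marker counts. This comparison shares its libraries with the preceding ones. Set side by side, media against naïve and lactate against media gave 1.12 and 0.57 for Fh1, 0.99 and 0.53 for Sdhb, 1.00 and 0.12 for Sdhd, and 0.48 and 0.83 for Suclg1. Within the low run the lactate minus naïve differences ran from 0.44 (Sdha) to 1.67 (Fh1), and within the high run, with 1 naïve library, from 0.35 to 1.72.

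Levels of different genes were compared per length, as TPM, counts per base of merged exon scaled to a common total. The merged exons are 1231 bases for Sdhd, 4126 for Sdha and 4623 for Suclg2. They join the exons of all annotated transcripts, and which transcripts the cells used was not tested. The order of the genes in TPM, and the shares and sums of TPM given below, depend on these lengths. In CPM, media cells averaged 316 for Sdha and 134 for Sdhd. In media Sdhd had the highest level of the 8 genes, 377 ± 26.5 TPM (SD, n = 4), followed by Sdha with 265 ± 16.3 and Sdhb with 193 ± 18.4 TPM. Sdhc (104 ± 8.80), Fh1 (84.2 ± 8.72), Sucla2 (60.3 ± 3.99), Suclg1 (57.0 ± 6.30) and Suclg2 (27.3 ± 3.90 TPM) came after them. The ranges of Sdhc and Fh1 overlapped, as did those of Sucla2 and Suclg1, and all other neighbours in this order were separate.

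The order differed in part in the other groups. In naïve cells Sdha (223 ± 18.7 TPM) stood above Sdhd (186 ± 4.08 TPM), without overlap, and Sdhb (95.8 ± 8.05) and Sdhc (64.8 ± 5.32 TPM) followed. Suclg1, Fh1 and Sucla2, at 40.3 ± 2.83, 38.2 ± 2.23 and 35.7 ± 3.45 TPM, did not differ beyond their spread, and Suclg2 was lowest with 20.4 ± 2.95 TPM. With lactate Sdhd (374 ± 6.58 TPM) again had the highest level, and Sdha (272 ± 21.1) and Sdhb (254 ± 19.6 TPM) overlapped, as did Sdhc (114 ± 2.46) and Fh1 (113.5 ± 7.76 TPM). Suclg1 (92.1 ± 3.94 TPM) stood above Sucla2 (72.4 ± 1.85 TPM) with no overlap, and Suclg2 was lowest with 36.7 ± 1.80 TPM.

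The makeup of the succinate dehydrogenase transcripts differed between the groups. Sdhb made up 16.8% ± 1.36 of the summed TPM of the 4 subunits in naïve cells, 20.5% ± 1.33 in media and 25.0% ± 1.03 with lactate (SD, n = 4 each). By library the Sdhb share was 16.0, 18.0, 15.4 and 18.0% in naïve cells, 22.4, 19.9, 19.4 and 20.2% in media, and 25.8, 25.9, 23.8 and 24.5% with lactate. The 3 groups did not overlap (exact permutation p = 0.0286 for each pair, adjusted p = 0.0477 over 15 such tests, chosen after the values were seen). Within library runs the lactate libraries were also higher than media, by 5.26 percentage points among low numbers and 3.94 among high ones. The share of Sdha was 39.1% ± 2.02 in naïve cells, above 28.3% ± 1.78 in media and 26.8% ± 1.12 with lactate, and the last 2 groups overlapped (exact permutation p = 0.2, adjusted p = 0.25). The share of Sdhd was 32.7% ± 1.32, 40.2% ± 1.95 and 36.9% ± 1.74, with overlap between media and lactate (exact permutation p = 0.0857, adjusted p = 0.129), and Sdhc was near 11% in all groups (11.4, 11.1 and 11.3%). These tests leave the donors out. Within the 3 donors sampled in both conditions, the lactate library had the higher Sdhb share in 3 of 3, by 3.37 to 6.50 percentage points, and the lower Sdhd share in 3 of 3, with differences of -6.33 to -1.54 points, while the Sdha share was lower in 2 of 3.

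In the ligase, Sucla2 was the more abundant β subunit in every library. The ratio of Sucla2 to Suclg2 TPM was 1.46, 1.57, 1.66 and 2.53 in naïve cells, 2.29, 2.38, 1.93 and 2.31 in media, and 1.91, 2.13, 1.91 and 1.95 with lactate. Naïve replicate 4 was above all other libraries, and all groups overlapped. On the log2 scale the ratio was lower by 0.17 with lactate than in media (-0.17; exact permutation p = 0.0857, adjusted p = 0.214 over 3 comparisons), and 0.33 higher in media than in naïve cells (exact permutation p = 0.143, adjusted p = 0.214). The summed TPM of both β subunits per TPM of Suclg1 was 1.19 ± 0.0242 with lactate, below 1.54 ± 0.132 in media without overlap (exact permutation p = 0.0286, adjusted p = 0.0477 over the same 15 tests), and was 1.40 ± 0.122 in naïve cells. Within donors the lactate library was lower in 3 of 3 for this sum and in 2 of 3 for the ratio of Sucla2 to Suclg2.

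**Figure D3:**
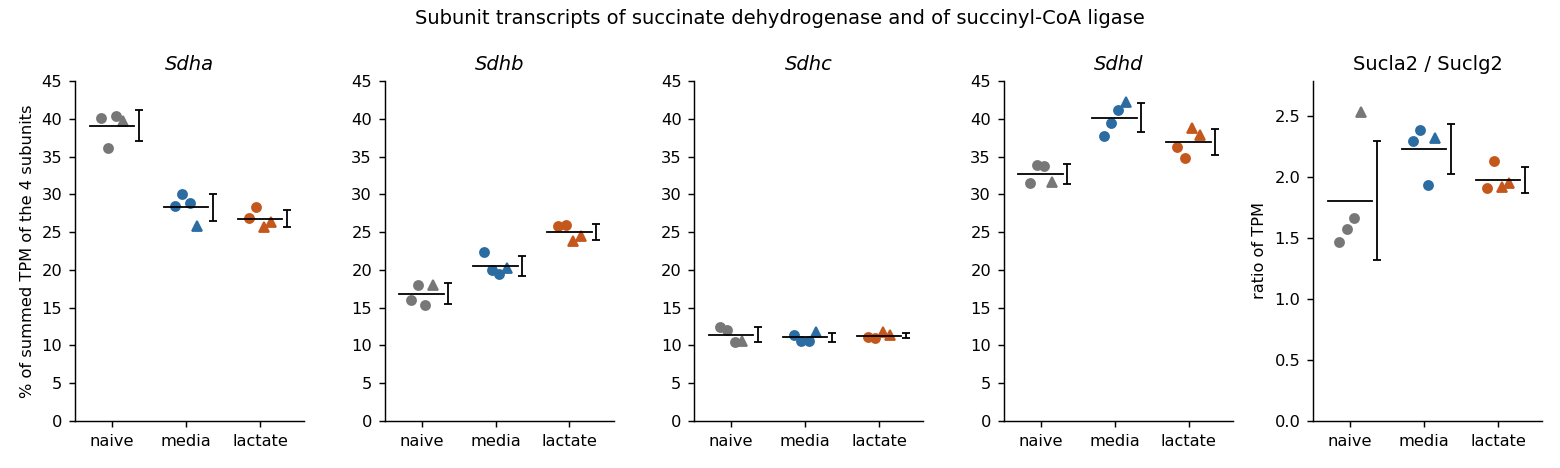
Share of each succinate dehydrogenase subunit in the summed TPM of the 4 subunits (%), and the ratio of Sucla2 to Suclg2 TPM, in the 12 libraries (points; circles and triangles mark the low and high run of library numbers; lines are means and bars SD). The Sdhb share was 15.4 to 18.0% in naïve cells, 19.4 to 22.4% in media and 23.8 to 25.9% with lactate.

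Of 9 other TCA cycle genes, 5 were higher and 0 lower than in media, with a median log2 fold change of 0.40 in edgeR. Over all tested genes 13.9% were called higher and 11.1% lower. Of the 5, Cs missed the threshold in 7 of 23 alternatives and Dld in 16. For this list and those below, counts at an unadjusted p under 0.05 are given without the share over all genes. They cannot be judged against that share. At an unadjusted p under 0.05, 6 were higher and 1 was lower: Idh3g, a regulatory subunit of isocitrate dehydrogenase, measured 143 ± 5.89 CPM with lactate and 166 ± 10.4 CPM in media (log2 fold change -0.21, adjusted p = 0.0469), and DESeq2 called it lower (adjusted p = 0.00534). The largest changes among these 9 were those of Idh3a, the catalytic subunit of NAD-dependent isocitrate dehydrogenase (0.93, SE 0.11), Dlst, the succinyltransferase of the 2-oxoglutarate dehydrogenase complex (0.60, SE 0.10), which makes the substrate of the ligase, and Mdh2, the malate dehydrogenase that uses the product of fumarase (0.57, SE 0.10). Their adjusted p-values were 9.83e-05, 0.000618 and 0.00088. Of the 9 genes 4 were called with the donor term in the 8 activated libraries and 1, Idh3a, in all 12.

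Of the 4 assembly factors of succinate dehydrogenase, 0 were called in either direction by edgeR or DESeq2. At an unadjusted p under 0.05, 3 were higher, with no share over all genes to set this against. Sdhaf2, which attaches the flavin to Sdha and had the highest counts of them, measured 47.6 ± 3.77 CPM in media and 54.8 ± 4.09 CPM with lactate (0.21, SE 0.09, adjusted p = 0.0789). The median of the 4 was 0.40. Of 11 genes of iron-sulfur cluster assembly, which supplies Sdhb, 4 were higher and 1 was lower (median 0.41). Glrx5, a glutaredoxin that carries clusters, rose by 1.04 (SE 0.21, adjusted p = 0.00216), Hspa9, the mitochondrial chaperone mortalin, by 0.92 (SE 0.16, adjusted p = 0.000699), and Iscu, the scaffold on which clusters are built, by 0.87 (SE 0.12, adjusted p = 0.000206). Hscb, the co-chaperone of Hspa9 in cluster transfer, was the gene that fell, from 35.6 ± 5.06 to 19.6 ± 2.57 CPM (log2 fold change -0.86, adjusted p = 0.000514). With the donor term 4 higher and 1 lower were called in the 8 activated libraries, and 2 higher (Hspa9 and Iscu) and 0 lower in all 12.

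Of the genes that supply or remove the metabolites, some were called higher with lactate and others lower. Over all tested genes 13.9% were called higher and 11.1% lower. Of 7 genes that supply or use succinyl-CoA, 1 was higher with lactate, Mmut, the methylmalonyl-CoA mutase (0.51, SE 0.11, adjusted p = 0.00257), and 0 were lower, also in DESeq2 and at an unadjusted p under 0.05 (median 0.30). The 7 include Alas2, the red cell marker, which passed the filter through the naïve libraries (mean of 146.5 CPM) and averaged 0 CPM in media and 0.0384 CPM with lactate. The median of the other 6 was 0.27. Of 3 genes of succinate supply and transport that were tested, Slc25a10, the mitochondrial dicarboxylate carrier, rose from 13.9 ± 3.09 to 30.5 ± 3.46 CPM (1.13, SE 0.17, adjusted p = 0.000344). Aldh5a1, which makes succinate from succinic semialdehyde, fell from 4.98 ± 0.475 to 1.71 ± 0.815 CPM (-1.53, SE 0.30, adjusted p = 0.00189). The third, Acod1, passed the filter through the naïve libraries (mean of 6.81 CPM) and averaged at most 0.0803 CPM in both activated groups, so its change is not given. The median of the other two was -0.20.

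Of 6 genes on routes that release fumarate in the cytosol, 1 was higher and 2 were lower (median 0.03). DESeq2 called 2 higher, the second being Fah, which releases fumarate in tyrosine breakdown (0.63 on the log2 scale in edgeR, adjusted p = 0.0235). Of 23 alternatives 4 called Fah, with adjusted p-values of 0.00175 to 0.201 over all of them. Adsl, adenylosuccinate lyase, rose by 0.86 (SE 0.14, adjusted p = 0.000639). Adssl1, which makes adenylosuccinate, was lower, with 64.5 ± 9.97 CPM in media and 24.9 ± 6.90 CPM with lactate (-1.37, SE 0.25, adjusted p = 0.00116). Adss, the other gene for this step, had higher counts and was not called, with 203 ± 13.8 CPM in media and 196 ± 14.4 CPM with lactate (-0.05, SE 0.16, edgeR adjusted p = 0.852). Ass1, which makes argininosuccinate, was also lower (-0.66, SE 0.13, adjusted p = 0.00194). Of 3 protein regulators of succinate dehydrogenase, Trap1, a mitochondrial chaperone that binds the enzyme, was higher (0.36, SE 0.09, adjusted p = 0.00898; median of the 3 0.27), but missed the threshold in 16 of 23 alternatives (adjusted p from 0.00189 to 0.0973 over all). With the donor term in all 12 libraries, Mmut (0.0216), Aldh5a1 (0.0186), Adssl1 (0.0185) and Ass1 (0.0269) also missed it, while Slc25a10 and Adsl passed.

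**Figure D4:**
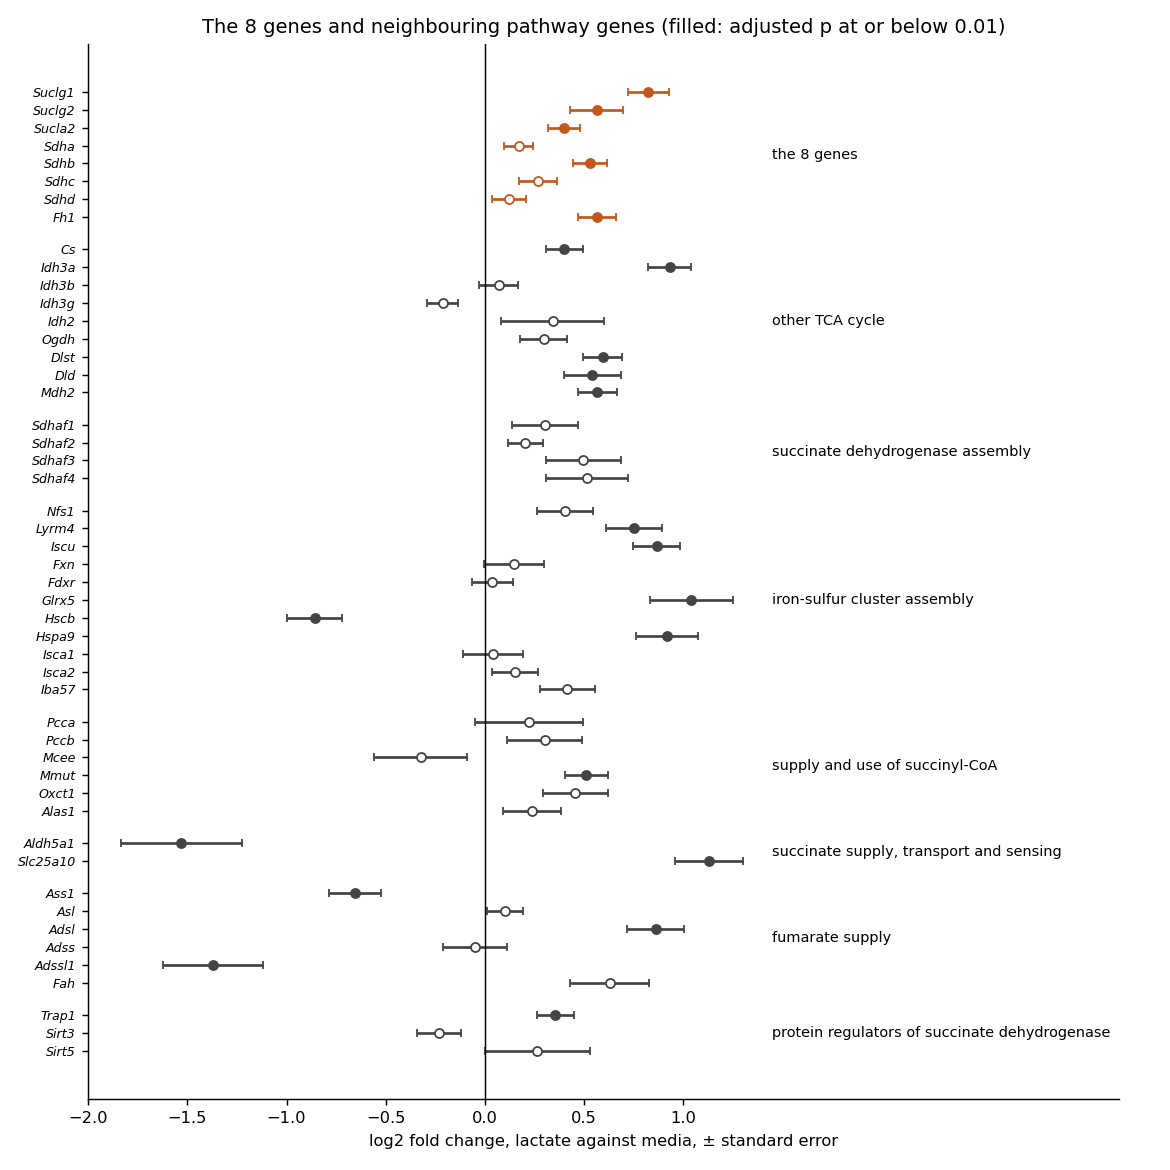
Log2 fold change ± SE between lactate and media of the 8 genes (orange) and of the genes of 7 neighbouring lists (grey) with a mean of at least 1 CPM in either group; filled points have an adjusted p of at most 0.01. The filled points of the 8 genes lie between 0.40 and 0.83, and the lists of succinate and fumarate supply hold filled points on both sides of 0.

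Over the 12 libraries, the centred log2 CPM profiles of the 8 genes differed by root-mean-square distances of 0.10 (Sdhb and Fh1, the closest pair) to 0.55 (Sdha and Fh1). The members of an enzyme were not always nearest to each other: Sdhb lay at 0.48 from Sdha, 0.26 from Sdhc and 0.22 from Sdhd. Among all other tested genes, the profiles nearest to the mean of the ligase genes were those of Atp5a1, Ube2e1 and G6pc3 (each at 0.07). Nearest to the mean of the dehydrogenase genes were Atp5j2 (0.05), Usp5 (0.06) and Ssu72 (0.07), and nearest to Fh1 were Mrpl13, Ndufb8 and Cox5a (each at 0.09). Atp5a1, for example, averaged 531, 835 and 1246 CPM in naïve, media and lactate cells. These distances describe the 12 libraries, which share the group structure, and carry no test.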

How the data were processed

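The deposited table held raw counts, which the authors made by aligning single-end reads to GRCm38 with STAR 2.7.5b, removing PCR duplicates and counting unique reads over Ensembl exons with featureCounts; the strand setting is not given in the sources used here. The table also gives a length for each gene, equal to the merged GENCODE M21 exons for all 8 genes. Totals of 14726904 to 21478137 counts per library set the precision, and the smallest count of a described member was 373 (Suclg2).

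Groups, title numbers, donor tags and library numbers came from the labels; donor tags were read within each run of library numbers (8 low, 4 high). The filter asked for 1 CPM or more in at least 3 libraries and dropped 13 genes. Counts were scaled by TMM and fitted in edgeR 4.0.16 (R 4.3.3) by the quasi-likelihood method with 3 groups over 12 libraries and no block. Tests were two-sided with Benjamini-Hochberg adjustment over all 13767 genes and a threshold of 0.01, and SE is the log2 fold change over the square root of F. TPM used the lengths in the table, log2 CPM a prior count of 2. The fit was also run on simulated counts of independent libraries. That simulation held no donor or run effect, so it cannot show how donors change the calls. The labels name donors only for activated cells, so p-values measure the spread between libraries, which may in part be technical.

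Libraries read as the same donor deviated from their group means together, with correlations across genes of 0.374, 0.211 and 0.553 for the 3 donors. These libraries were treated as pairs only in the fits with a donor term and in the differences within donors. The main fit and the exact permutation tests leave the pairing out. Some libraries of different donors in the same run also correlated, at 0.371 (media 4 and lactate 3) and 0.297 (media 2 and lactate 2). Other such pairs of the low run gave -0.0249 to 0.0811, and media and lactate libraries of different runs gave -0.441 to 0.0038. Donor and run were thus not fully separated. Title numbers do not all follow donors. Alternatives were the likelihood ratio test, DESeq2 1.42.0, other scalings and filters, a fit of only the groups compared, blocks by donor and by title number, a run term, a threshold of 0.05 and leaving out each library. Single values were compared with exact permutation tests. The members, lists and tests were chosen with earlier results of these data known. Genes named are the 8 members and, of each list, up to 3 genes with the largest change among those called between lactate and media, or else the gene with the highest CPM, with the 3 nearest profiles per enzyme. Hscb, Idh3g, Cs, Dld, Fah, Adss, Alas2 and Acod1 were chosen after their values were seen. Fdx2, Abat and Sucnr1 were listed but not analysed here, and some other genes that these rules select are left out of the report.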

Additional observations from a re-analysis of the deposited data

Results flagged for a closer look

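Sdha in lactate replicate 2 measured 380.62 CPM, far from the other 3 lactate libraries (345 to 348 CPM) by Dixon's test of the gap against the range. It was the only such value among the 27 groups of 4 examined. Chance alone gives about 1 such value in 20 groups, so this one does not stand out from chance. Without this library the log2 fold change of Sdha between lactate and media was 0.14 (edgeR adjusted p = 0.186), and Sdha stayed uncalled.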

How the results depend on the processing

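No alternative turned the direction of any of the 8 genes in any comparison. TPM was not among these alternatives. In TPM the mean of Sdhd was 377 in media and 374 with lactate. Sdha (244 to 279 TPM in media, 253 to 298 with lactate) and Sdhc (91.9 to 111.1 against 110.5 to 115.7) also overlapped in TPM. For lactate against media the count of genes called was 5 in most alternatives, 6 at an adjusted p of at most 0.05, and 4 to 5 when a library was left out, where Suclg2 was the gene lost. With the donor term in all 12 libraries it was 1, and in the 8 activated libraries alone, chosen after seeing the data, 4; the cause was not tested. With title numbers as a replicate block it was 5, with a median of 0.47. Of the 4 same-numbered pairs, 2 also share a donor (correlations of 0.374 and 0.553). The other 2 do not (0.297 for media 2 and lactate 2, both of the low run, and 0.0038). The count was 5 to 6 for media against naïve and 7 to 8 for lactate against naïve when a library was left out, and the donor term changed neither. The median log2 fold change for lactate against media ran from 0.41 to 0.50. The log2 ratio of Sucla2 to Suclg2 ran from -0.24 to -0.14 for lactate against media, 0.25 to 0.51 for media against naïve and 0.07 to 0.34 for lactate against naïve without 1 library. The lowest count of a member in a library was 373; groups of 4 limit what exact tests can show.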
